A study of Mus musculus with 2 samples.

Results

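The genes described here encode the chains of the collagens in quadriceps muscle of normal mice and of mice without Ptrf. All gene symbols made of Col, a number, the letter a and a number were taken from the feature list of 53700 genes, which gave 44. Of these, 40 had at least 20 UMIs (unique molecular identifiers, each standing for 1 captured RNA molecule) over both libraries and were kept. Those left out were Col2a1 with 17 UMIs, Col9a2 with 5, Col9a3 with 13 and Col10a1 with 3. The choice used this sum alone and no difference between the libraries. The samples were nuclei from the quadriceps of C57BL/6N mice 3 months of age, either WT or PTRF KO, read by droplet RNA sequencing with 1 library per genotype. The gene Ptrf is now named Cavin1, and its protein coats caveolae, small pits of the plasma membrane. The labels do not say how many animals entered each library, or whether the gene was deleted in the germ line. With 1 library per genotype there was no test between genotypes, and every interval below covers counting error only.

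Collagens are extracellular proteins in which 3 chains wind into a triple helix, and most trimers need particular partner chains. The fibrillar collagens form the cable-like fibrils of tendon and of the connective tissue around muscle fibres. Type IV collagen forms the network of the basement membrane that wraps each fibre and capillary, and type VI forms beaded filaments that link this membrane to the fibrils. FACIT collagens (fibril-associated collagens with interrupted triple helices) sit on fibril surfaces, transmembrane collagens are held in the cell membrane, and multiplexins are basement membrane collagens that carry sugar chains. In muscle most fibrillar and type VI chains are made by fibroblasts and fibro-adipogenic progenitors, whereas a few collagens are made by the muscle fibre itself at its neuromuscular junction (the synapse with the motor nerve) and its myotendinous junction (the attachment to tendon). By structural class the 40 genes were 10 fibrillar, 6 basement membrane, 6 beaded filament, 7 FACIT, 4 transmembrane, 2 multiplexin and 2 short-chain network genes, the anchoring fibril gene Col7a1, and 2 others, Col26a1 and Col28a1.

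The 6 type IV genes lie in 3 head-to-head pairs, and several of the values below turn on the partners of a pair, so the promoters of the pairs on chromosomes 8 and X are shown. Each window runs from 250 bases before to 50 bases after the annotated start, is printed 5′ to 3′ on the gene's own strand, and comes from RefSeq on build GRCm38.p6. Col4a1 (chr8:11312777-11313076, minus strand) and Col4a2 (chr8:11312555-11312854, plus strand) encode the chains of the type IV trimer found in nearly all basement membranes. Their genes overlap by 22 bases at their starts and their windows share 78 bases, which are in capitals in both sequences as reverse complements of each other. Col4a5 (chrX:141475169-141475468, plus strand) and Col4a6 (chrX:141474027-141474326, minus strand) encode chains of more restricted basement membranes and start 1308 bases apart. In this pair capitals mark matches to the CCAAT box (CCAAT) and the GC box (GGGCGG), searched on both strands.
Col4a1: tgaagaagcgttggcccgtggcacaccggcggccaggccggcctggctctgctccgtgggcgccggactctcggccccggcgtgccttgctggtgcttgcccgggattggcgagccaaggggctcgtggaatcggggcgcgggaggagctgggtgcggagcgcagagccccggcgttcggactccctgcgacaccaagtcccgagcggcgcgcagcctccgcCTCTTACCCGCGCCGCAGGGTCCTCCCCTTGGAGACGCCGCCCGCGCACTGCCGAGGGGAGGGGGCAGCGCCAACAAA
Col4a2: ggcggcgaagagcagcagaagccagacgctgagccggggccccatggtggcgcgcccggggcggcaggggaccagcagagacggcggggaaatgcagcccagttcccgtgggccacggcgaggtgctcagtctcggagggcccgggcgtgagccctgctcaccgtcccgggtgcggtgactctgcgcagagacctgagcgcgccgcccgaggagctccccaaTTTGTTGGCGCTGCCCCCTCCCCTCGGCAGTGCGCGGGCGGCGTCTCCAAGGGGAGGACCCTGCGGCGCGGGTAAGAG
Col4a5: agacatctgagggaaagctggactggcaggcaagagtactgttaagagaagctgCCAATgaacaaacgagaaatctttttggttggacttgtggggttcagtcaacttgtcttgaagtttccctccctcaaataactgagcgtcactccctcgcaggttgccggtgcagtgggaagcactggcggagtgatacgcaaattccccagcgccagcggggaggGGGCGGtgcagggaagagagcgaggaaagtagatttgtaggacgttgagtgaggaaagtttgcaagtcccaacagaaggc
Col4a6: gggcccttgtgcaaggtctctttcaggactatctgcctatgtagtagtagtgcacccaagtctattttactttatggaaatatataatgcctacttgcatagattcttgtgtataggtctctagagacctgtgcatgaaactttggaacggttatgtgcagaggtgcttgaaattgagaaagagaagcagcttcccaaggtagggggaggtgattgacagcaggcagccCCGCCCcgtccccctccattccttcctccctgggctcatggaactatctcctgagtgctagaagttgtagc
The first pair thus shares its start region, whereas no base of the Col4a5 window lies in the Col4a6 window. Windows were found for 33 of the 40 genes. A CCAAT match lay in the windows of 13 of the 33, which is 39.4%, against 37.4% of 32851 promoters of the same length. A GC box match lay in 21 of the 33, which is 63.6%, against 35.7% of all promoters. A TATA box match (TATAAA, either strand) lay in 4, or 12.1%, those of Col3a1, Col11a2, Col13a1 and Col17a1, against 13.6% of all promoters. The fourth motif searched, the N-box (CCGGAA, either strand), lay in 0 of the 33, against 14.9% of all promoters. A match of letters is a description of the window only.

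Before the collagen values, some facts of the libraries bear on them. The WT matrix held 10280 barcodes and 9746980 UMIs and the knockout matrix 7766 barcodes and 16052317 UMIs, and 10272 and 7762 nuclei were kept, with medians of 703 and 1562 UMIs. The targeted gene Cavin1 had 75 UMIs in WT and 2 in the knockout. The libraries differed in sex: UMIs of Xist without any of 4 Y-linked genes were seen in 2 WT and 1527 knockout nuclei, Y-linked UMIs alone in 2721 and 3103, and both kinds in 2 and 221, so the knockout library holds nuclei of both sexes. The libraries shared 24 barcodes. Nuclei were clustered together and named from marker genes, which gave 7442 WT and 5389 knockout myonuclei-like nuclei, 438 and 580 fibro-adipogenic-like, 256 and 1070 adipocyte-like, 110 and 85 mural-like (smooth muscle cells and pericytes), 157 and 46 neuromuscular junction-like and 94 and 84 myotendinous junction-like nuclei; the junction nuclei are counted among the myonuclei-like. RNA of muscle fibres was present in every class. Ttn, which encodes the giant sarcomere protein titin, stood in fibro-adipogenic-like nuclei at 65.9% of its myonuclear level in WT and 35.2% in the knockout, and at 68.4% and 35.5% in mural-like nuclei.

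Collagen RNA was a small share of the total in both libraries, at 763 and 827 CPM (UMIs of these genes in each 1000000 UMIs) in WT and knockout, from 7437 and 13276 UMIs. The sources of these UMIs differed. Fibro-adipogenic-like nuclei held 16.8% of the collagen UMIs of the WT library and 30.9% of those of the knockout, and myonuclei-like nuclei held 52.7% and 41.6%. The summed collagen level in fibro-adipogenic-like nuclei was 3347 CPM in the WT library and 5761 in the other, against 525 and 449 CPM in myonuclei-like nuclei. Of the 40 genes, 18 had the same class as their highest in both libraries among classes of at least 30 nuclei. Blood and lymphatic endothelial-like nuclei reached that number in the knockout alone, where they were highest for 3 and 2 genes. Fibro-adipogenic-like nuclei were highest for 15 genes in WT and 19 in the knockout, and neuromuscular junction-like nuclei for 5 and 7. A class can lead by a few UMIs, so this order is uncertain for sparse genes.

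**Figure D1:**
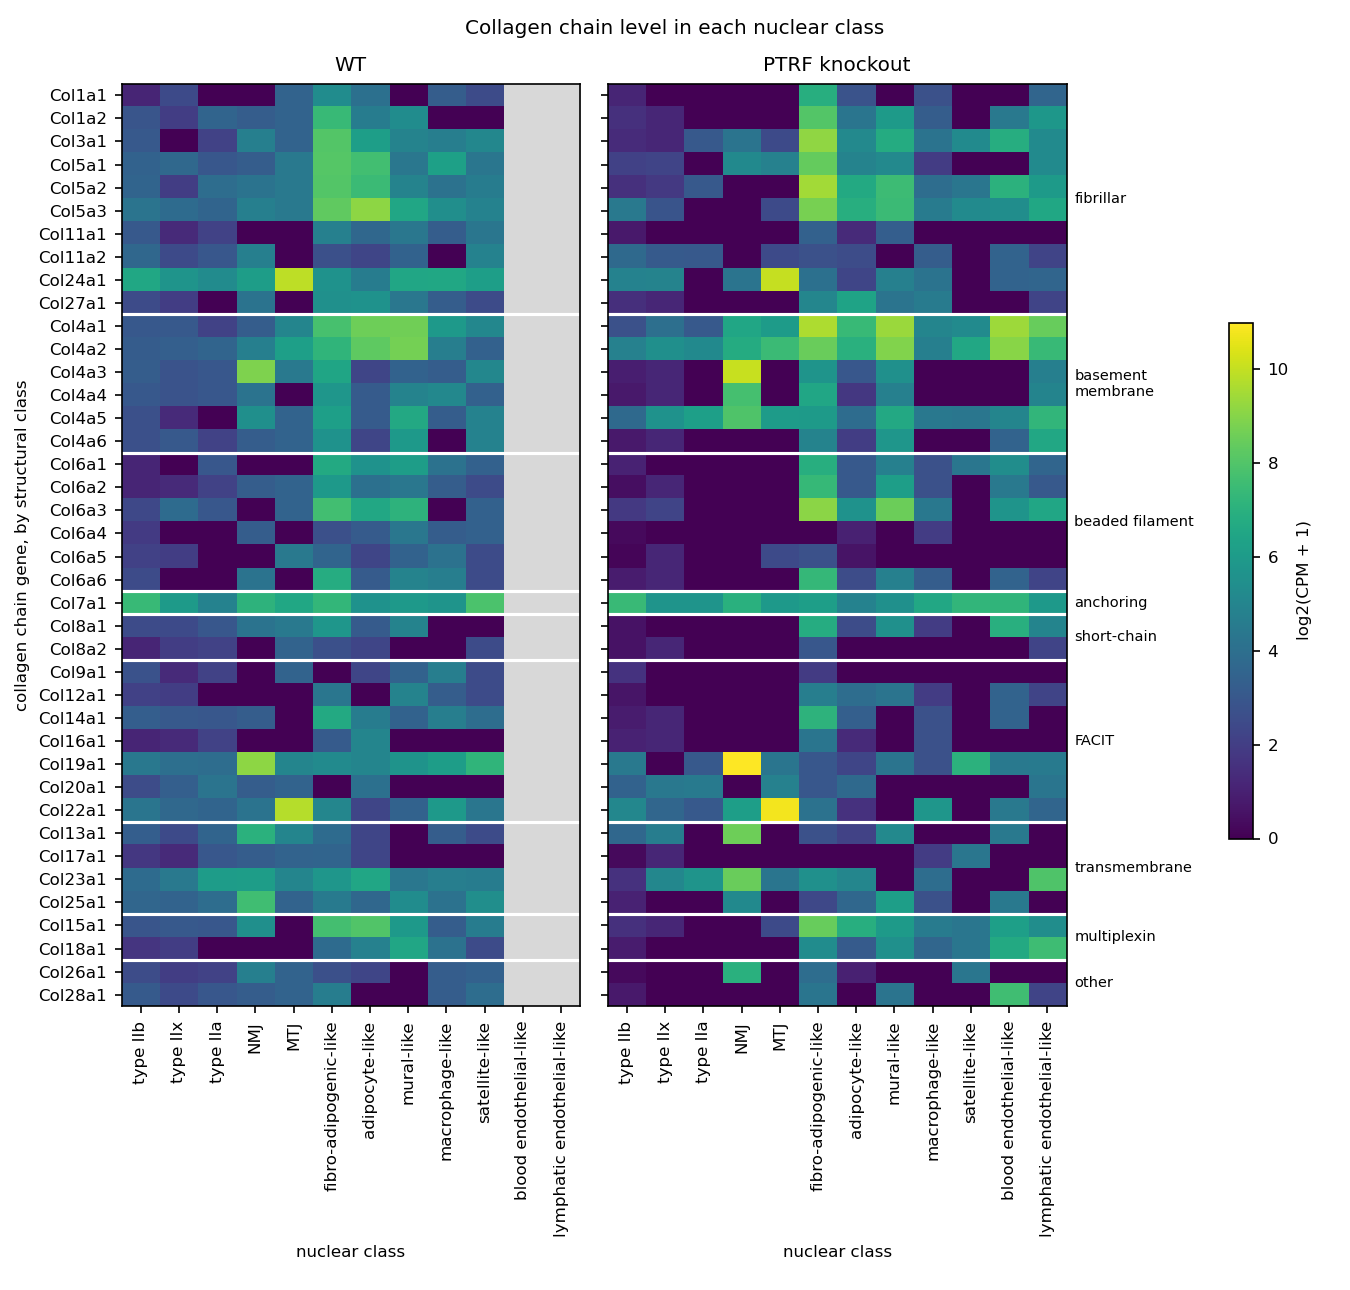
Level of each of the 40 collagen chain genes (rows, grouped by structural class) in each nuclear class (columns) of the WT library (left) and the PTRF knockout library (right), coloured by log2(CPM + 1), with grey where a class had fewer than 30 nuclei. Fibro-adipogenic-like nuclei are brightest in both libraries for 6 of the 10 fibrillar and 4 of the 6 beaded filament genes but for 0 of the 6 basement membrane genes, whose brightest classes differ between libraries except for Col4a3. For Col4a2 and Col4a6 the brightest knockout class is an endothelial-like one, which is grey in WT. Col4a3, Col19a1, Col22a1 and Col24a1 are brightest in junction nuclei, in both libraries.

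Different genes are ranked by level here per kilobase of gene length, because nuclear RNA holds introns, and elsewhere only their UMIs or their ratios are set side by side. The genes ran from 16.8 kb (Col1a1) to 468 kb (Col25a1), with a median of 120 kb. In fibro-adipogenic-like nuclei of the WT library the highest levels per length were those of Col5a3, a type V chain, at 7.14 CPM per kb, and of Col3a1, the chain of type III collagen, at 6.88. In the knockout library Col3a1 stood at 15.3 CPM per kb and Col5a3 at 9.64. Col6a1, a type VI chain, stood at 5.86 and 6.87 CPM per kb. Of the chains of type I collagen, the main fibril collagen, Col1a2 stood at 4.67 in WT and 7.26 in the knockout and Col1a1 at 2.39 and 6.93 CPM per kb. In myonuclei-like nuclei Col7a1, the chain of the anchoring fibrils of skin, stood at 4.48 CPM per kb in WT and 4.67 in the knockout. Its myonuclear level was 90.2% of its fibro-adipogenic level in WT and 204% in the knockout, so in WT it was not particular to myonuclei.

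In fibro-adipogenic-like nuclei 9 collagen genes were at least 2-fold higher in the knockout library, Col1a1, Col3a1, Col4a1, Col4a2, Col5a2, Col6a2, Col6a3, Col8a1 and Col18a1, while Col7a1 and Col24a1 were at least 2-fold lower. Chains of 1 type did not all share a direction. The summed level of all 40 genes was 0.78 higher on the log2 scale (interval 0.69 to 0.88). The markers of these nuclei were higher by nearly the same amount: the 10 fibro-adipogenic markers summed to 3615 and 6067 CPM, a log2 ratio of 0.75 (0.66 to 0.84), with all 10 detected in both. Markers of myonuclei went the other way, with 8 summing to 60292 and 25745 CPM, a log2 ratio of -1.23. The share of the collagen difference that goes with this difference in mixed-in fibre RNA was not tested. Scaled by the summed fibro-adipogenic markers instead of by all UMIs, which is an alternative added after the data were seen, the log2 ratio of the collagen sum was 0.036.

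By structural class, the basement membrane genes summed in these nuclei to 629.7 and 1380.5 CPM, a log2 ratio of 1.13 (0.93 to 1.34). The beaded filament genes stood at 493 and 987 CPM, a log2 ratio of 1.00, and the fibrillar genes at 1463 and 2514 CPM, a log2 ratio of 0.78. The short-chain network and multiplexin genes had log2 ratios of 0.98 and 0.82. The FACIT genes were nearly level at 0.10, and the transmembrane genes and Col7a1 were lower in the knockout library, at -0.86 and -1.12. The basement membrane sum was carried by Col4a1 and Col4a2, whereas Col4a3 stood at a log2 ratio of -0.81 (-1.53 to -0.08), Col4a6 at -0.72 and Col4a5 at -0.21, the last 2 with intervals that span 0. Col4a4 was higher in the knockout library, at 0.72 (0.0025 to 1.55) from 20 and 64 UMIs.

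Of the 40 genes, 27 had at least 20 UMIs in fibro-adipogenic-like nuclei of both libraries together. Of these, 9 were at least 2-fold higher in the knockout library and 2 at least 2-fold lower, and 16 lay between. Over all genes measured in these nuclei, 15.5% were at least 2-fold higher and 7% at least 2-fold lower. The median log2 ratio was 0.43 over the 27 collagen genes and 0.28 over all genes measured. The 13 genes with fewer UMIs, not compared here, were Col6a4, Col6a5, Col8a2, Col9a1, Col11a1, Col11a2, Col13a1, Col16a1, Col17a1, Col19a1, Col20a1, Col25a1 and Col26a1.

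Col4a1 had the highest ratio of the 27. It had 82 UMIs in WT and 565 in the knockout, or 220 and 793 CPM, a log2 ratio of 1.85 (1.52 to 2.20). Its partner Col4a2 had 55 and 252 UMIs, or 147 and 354 CPM, a log2 ratio of 1.25 (0.84 to 1.71). Col5a2, a type V chain that helps fibrils to start, had 99 and 510 UMIs, or 265 and 716 CPM, a log2 ratio of 1.43 (1.12 to 1.76). Col6a3, the largest chain of the classical type VI trimer, had 76 and 385 UMIs, or 204 and 541 CPM, a log2 ratio of 1.40 (1.05 to 1.78). Col4a1, Col5a2 and Col6a3 were the genes whose whole interval lay beyond 2-fold. Col3a1 stood at 263 and 583 CPM, from 98 and 415 UMIs, a log2 ratio of 1.14 (0.83 to 1.48). Col1a1 rested on 15 and 83 UMIs, or 40.2 and 117 CPM, with a log2 ratio of 1.5 (0.73 to 2.44). The remaining genes past 2-fold were Col6a2, another chain of the classical type VI trimer, at 61.6 and 163 CPM, Col8a1, a short-chain collagen of vessels, at 53.6 and 111 CPM, and Col18a1, whose end fragment is endostatin, at 13.4 and 39.3 CPM from 5 and 28 UMIs.

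Other chains of the same trimers differed less. Col5a3 had 120 and 309 UMIs, or 322 and 434 CPM, a log2 ratio of 0.43. Col5a1, the partner of Col5a2, stood at 276 and 334 CPM, a log2 ratio of 0.27. Col1a2 stood at 171 and 267 CPM, and Col6a1, which completes the type VI trimer, at 102 and 119 CPM. Col15a1, a multiplexin of the muscle and capillary basement membrane, stood at 206 and 350 CPM, a log2 ratio of 0.75, and Col14a1, a FACIT of dense connective tissue, at 102 and 136 CPM. The genes at lower level were Col7a1, with 58 and 51 UMIs or 155 and 71.6 CPM, a log2 ratio of -1.12 (-1.69 to -0.55), and Col24a1, with 18 and 11 UMIs or 48.2 and 15.4 CPM, a log2 ratio of -1.62 (-2.87 to -0.48). Both have most of their UMIs in myonuclei-like nuclei. Scaled by the fibro-adipogenic markers, Col4a1 alone stayed past 2-fold higher, at a log2 ratio of 1.10. On that scale Col1a1 stood at 0.75, Col5a2 at 0.68, Col6a3 at 0.65, Col4a2 at 0.51 and Col3a1 at 0.40.

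The sex mix of the knockout library bears on some of these values. Among nuclei with Y-linked UMIs and no Xist in both libraries, the log2 ratio of the collagen sum in fibro-adipogenic-like nuclei was 0.78 (0.60 to 0.97). That of Col4a1 was 1.81, that of Col5a2 1.60 and that of Col6a3 1.36. Of 17 genes with at least 20 UMIs among these nuclei, 6 were at least 2-fold higher: Col1a1, Col4a1, Col4a2, Col5a2, Col6a2 and Col6a3. Col3a1 stood at 0.85 and was not among them. The share of all genes past 2-fold was not computed for these Y-marked nuclei. The sign turned for 5 of the 27 genes: Col1a2 (0.63 to -0.035), Col14a1 (0.41 to -0.088), Col4a5 (-0.21 to 2.69), Col22a1 (-0.93 to 1.34) and Col23a1 (-0.27 to 0.81). The 27 include genes with under 20 UMIs among Y-marked nuclei, so the size of a turn can rest on few UMIs. With the Xist-marked knockout nuclei in place of the Y-marked ones, the sum stood at 1.17, Col4a1 at 2.36, Col5a2 at 2.10 and Col6a3 at 2.27. Another possible source, tendon cells, was scored by an 8-gene tenocyte list, which summed to 21.4 CPM with 4 genes detected in WT and to 73.0 CPM with 7 in the knockout. Its part in the result was not tested.

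**Figure D2:**
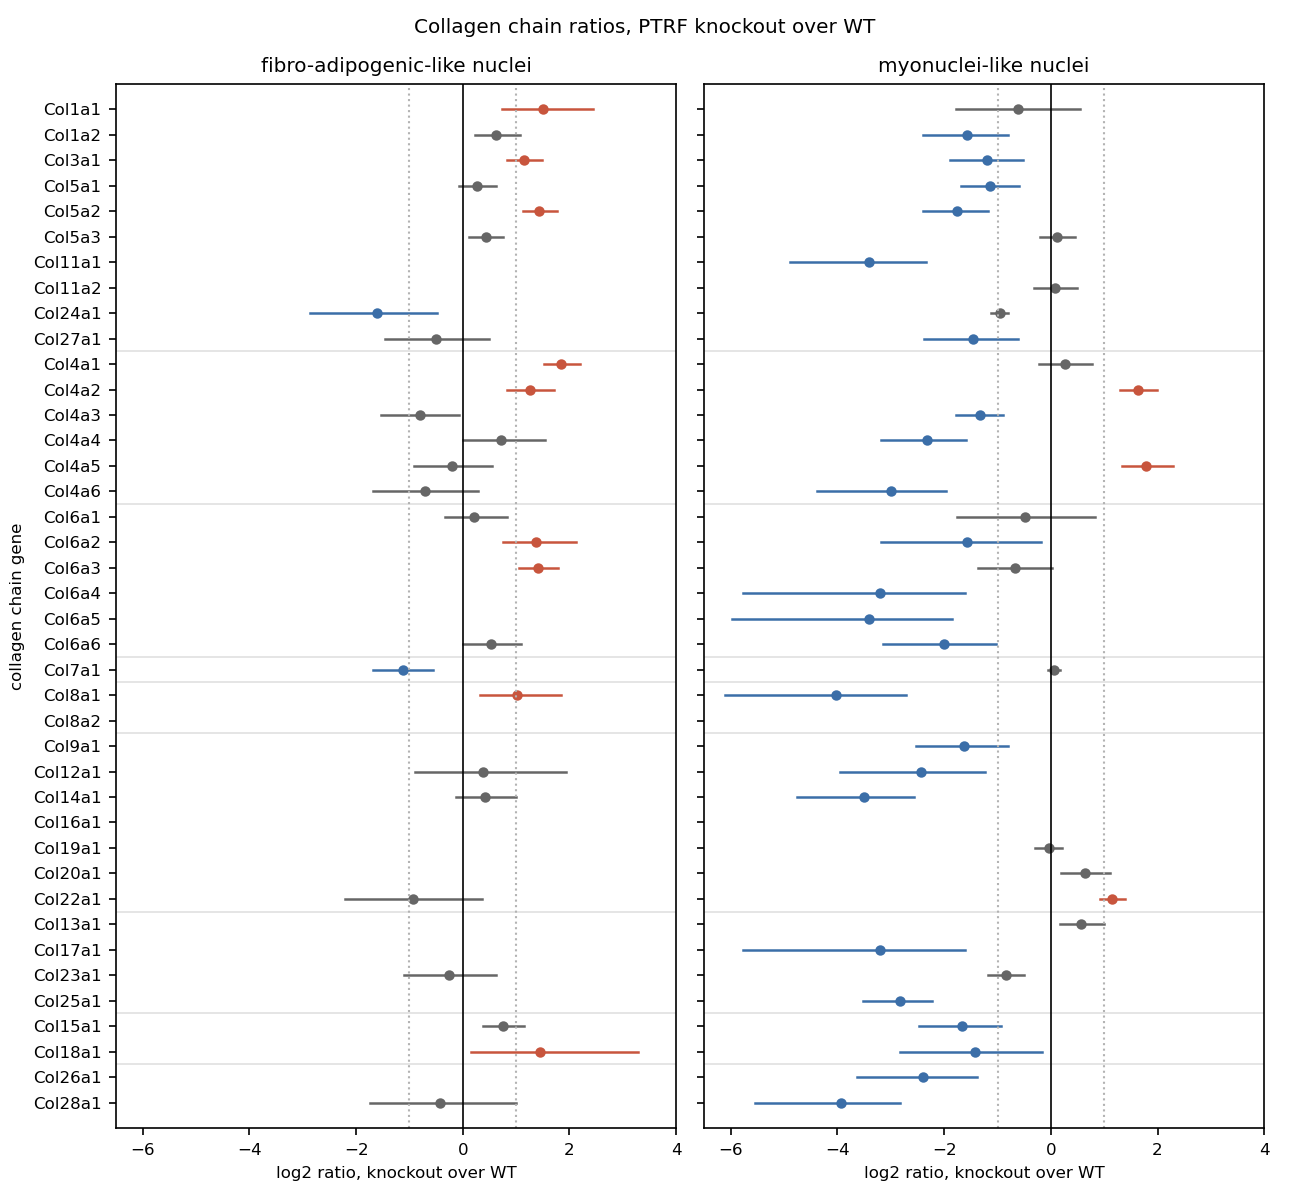
Log2 ratio of the level in the PTRF knockout library over WT for each collagen chain gene in fibro-adipogenic-like nuclei (left) and myonuclei-like nuclei (right), with 95% intervals that cover counting error only and dotted lines at 2-fold. Red points are at least 2-fold higher, blue points at least 2-fold lower and grey points between, and genes with under 20 UMIs have no point. In the left panel 9 points are red and 2 blue, and in the right panel 3 are red and 23 blue.

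In myonuclei-like nuclei most collagen genes stood lower in the knockout library, and 3 were at least 2-fold higher: Col4a2, Col4a5 and Col22a1. Myotendinous junction-like nuclei held 86 of the 200 WT and 382 of the 732 knockout UMIs of Col22a1. With the junction clusters left out, 2 of 37 measured genes were at least 2-fold higher, and Col22a1 was not among them. With the junction nuclei included, the summed level of 525 CPM against 449 gave a log2 ratio of -0.22 (-0.28 to -0.17). Of 38 genes with at least 20 UMIs, 3 were at least 2-fold higher, 23 at least 2-fold lower and 12 between, whereas 4.77% of all genes measured in these nuclei were at least 2-fold higher and 22.3% at least 2-fold lower. The median log2 ratio was -1.44 over the 38 and -0.09 over all genes measured. Ratios above 0 were found for 9 of the 38, and for Col13a1 (0.57, 0.16 to 1.00) and Col20a1 (0.63, 0.18 to 1.12) the whole interval lay above 0 without reaching 2-fold. Col8a2 and Col16a1 had under 20 UMIs. Different clusters held most of these nuclei in each library: the largest WT clusters held 2312 WT and 195 knockout nuclei and 1729 and 180, and the largest knockout clusters 84 and 2022, 821 and 1071, and 152 and 1041. What goes with genotype and what with cluster cannot be told apart in these ratios. The sign of the sum was not stable: scaled by 8 general myonuclear markers, which summed to 93146 and 73357 CPM, the log2 ratio was 0.12.

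The genes with most UMIs in myonuclei-like nuclei were Col7a1, Col24a1 and Col22a1, and each had its own pattern. Col7a1 (chr9:108953586-108984875, plus strand) had 1048 UMIs in WT and 1797 in the knockout, or 140 and 146 CPM, a log2 ratio of 0.06 (-0.05 to 0.17). Col24a1, a fibrillar collagen (chr3:145292472-145552011, plus strand), had 652 and 551 UMIs, or 87.2 and 44.8 CPM, a log2 ratio of -0.96 (-1.13 to -0.79). Col22a1, a FACIT of the myotendinous junction (chr15:71795795-72034227, minus strand), had 200 and 732 UMIs, or 26.8 and 59.6 CPM, a log2 ratio of 1.15 (0.93 to 1.39). Col7a1 was thus level, Col24a1 lower and Col22a1 higher in the knockout library. Col4a2 had 83 and 425 UMIs, or 11.1 and 34.6 CPM, a log2 ratio of 1.63 (1.30 to 2.00). Col4a5 had 46 and 263 UMIs, or 6.16 and 21.4 CPM, a log2 ratio of 1.78 (1.34 to 2.28). The 3 genes were also higher among Y-marked nuclei, with log2 ratios of 2.28 for Col4a2, 2.17 for Col4a5 and 1.52 for Col22a1.

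Among the 23 genes at least 2-fold lower, the lowest ratios were those of Col8a1, with 44 and 4 UMIs and a log2 ratio of -4.02, and Col28a1, a collagen known from peripheral nerve, with 60 and 6 UMIs and -3.94. Col14a1 had 65 and 9 UMIs and a log2 ratio of -3.50, and Col11a1, a fibrillar chain of cartilage, 48 and 7 UMIs and -3.41. Col25a1, a transmembrane collagen of muscle that motor axons need, had 114 and 26 UMIs and a log2 ratio of -2.83, and Col4a6 had 41 and 8 UMIs and -3.01 (-4.38 to -1.96). For 14 of the 23 the whole interval lay beyond 2-fold: the 6 just named and 8 more. Of these, Col4a4 had 59 and 19 UMIs (-2.33), Col5a2 73 and 35 (-1.77), and Col12a1, a FACIT of tendon, 24 and 7 (-2.43). The alternative type VI chains Col6a4, Col6a5 and Col6a6 had 19 and 3 (-3.20), 22 and 3 (-3.40) and 30 and 12 UMIs (-2.00). Col17a1, a transmembrane collagen of the skin's hemidesmosomes, had 19 and 3 UMIs (-3.20) and Col26a1 33 and 10 (-2.39). The others were Col1a2, Col3a1, Col4a3, Col5a1, Col6a2, Col9a1, Col15a1, Col18a1 and Col27a1. The 12 between were Col1a1, Col4a1, Col5a3, Col6a1, Col6a3, Col7a1, Col11a2, Col13a1, Col19a1, Col20a1, Col23a1 and Col24a1. Among these Col19a1 was level at 28.1 and 27.3 CPM and Col20a1 stood at 7.36 and 11.5 CPM. The count of lower genes depended on which nuclei were read: 9 of 25 measured were at least 2-fold lower among Y-marked nuclei, and 10 of 25 with every nucleus thinned to 500 UMIs, for which 2055 WT nuclei were too shallow. The share of all genes at least 2-fold lower was not computed for either setting.

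Gene length moved with these ratios. All genes measured in myonuclei-like nuclei were split into 5 equal groups by length. In the longest group, of at least 93.8 kb, the median log2 ratio was -0.80 and 47.7% of genes were at least 2-fold lower. In that group lay 26 of the 38 collagen genes, with a median of -1.72, of which 18 were at least 2-fold lower and 3 at least 2-fold higher. Those 3 are Col4a2, Col4a5 and Col22a1, while Col20a1, whose interval also lay above 0, is 31.8 kb long. In fibro-adipogenic-like nuclei the longest group, of at least 133 kb, had a median of 0.17 over all genes and -0.24 over its 12 collagen genes.

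**Figure D3:**
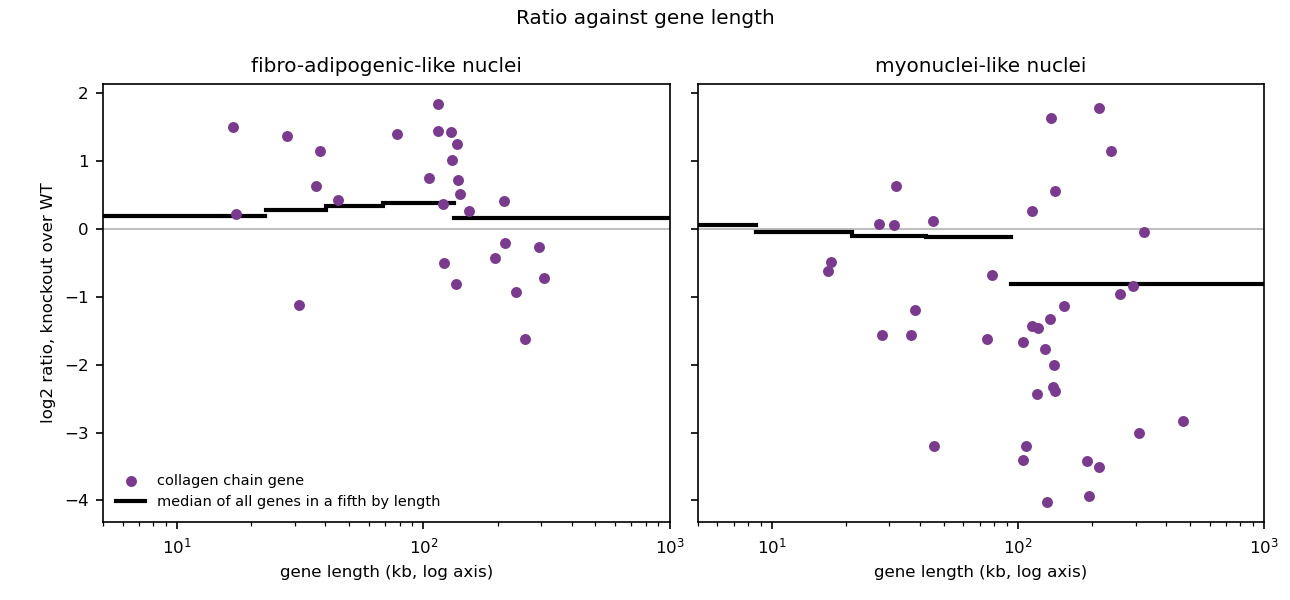
Log2 ratio of the knockout over the WT level against gene length in kb (log axis) for the collagen chain genes with at least 20 UMIs (purple points) in fibro-adipogenic-like nuclei (left) and myonuclei-like nuclei (right), with black steps at the median over all measured genes in each of 5 length groups. In the right panel the step of the longest group lies at -0.80, and the points there spread from -4.02 (Col8a1) to 1.78 (Col4a5).

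Fibroblast collagens in myonuclei-like nuclei were set beside other fibroblast transcripts. Col3a1 stood in myonuclei-like nuclei at 2.34% of its fibro-adipogenic level in WT and 0.461% in the knockout, and Col5a2 at 3.68% and 0.398%. Pdgfra, the receptor that marks fibro-adipogenic progenitors, stood at 2.50% and 0.268% on the same measure, and the matrix gene Dcn at 3.61% and 0.661%. The fibro-adipogenic marker list in myonuclei-like nuclei summed to 268 and 214 CPM. Genes of this list differed among themselves: Pdgfra had 27 and 8 UMIs in these nuclei, Dcn 47 and 46 and Bicc1 755 and 1234. The percentages also fall where the fibro-adipogenic level itself was higher in the knockout library, as it was for Col3a1. How much of the collagen difference comes with RNA from other cells was not tested.

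Within the type IV pairs, partners did not keep 1 ratio across classes. In fibro-adipogenic-like nuclei Col4a1 and Col4a2 were both higher in the knockout library, as given above. In myonuclei-like nuclei Col4a2 was higher whereas Col4a1, with 53 and 105 UMIs, stood at 7.09 and 8.54 CPM, a log2 ratio of 0.26, and the intervals of the partners did not overlap. Col4a5 and Col4a6 parted further in these nuclei, at log2 ratios of 1.78 and -3.01. Both belong to the longest group of genes, and Col4a6 rested on 41 and 8 UMIs. Col4a3 and Col4a4, which with Col4a5 form the trimer of the kidney filter and of the synaptic basement membrane and whose genes start 71 bases apart, were both lower in myonuclei-like nuclei, at -1.33 and -2.33. Of the myonuclear Col4a3 UMIs, 54 of 113 in WT and 61 of 74 in the knockout lay in neuromuscular junction-like nuclei. With the junction clusters left out, its log2 ratio was -2.82. In fibro-adipogenic-like nuclei Col4a3 stood at 88.4 and 50.6 CPM, Col4a4 at 53.6 and 89.9 CPM and Col4a5 at 72.3 and 63.2 CPM. Col4a1 and Col4a2, whose shared start region is printed above, thus differed together in fibro-adipogenic-like nuclei and apart in myonuclei-like nuclei. Col4a1 stood in myonuclei-like nuclei at 3.23% of its fibro-adipogenic level in WT and 1.08% in the knockout, and Col4a2 at 7.54% and 9.77%. The parts of the start region and of RNA from other cells were not tested.

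**Figure D4:**
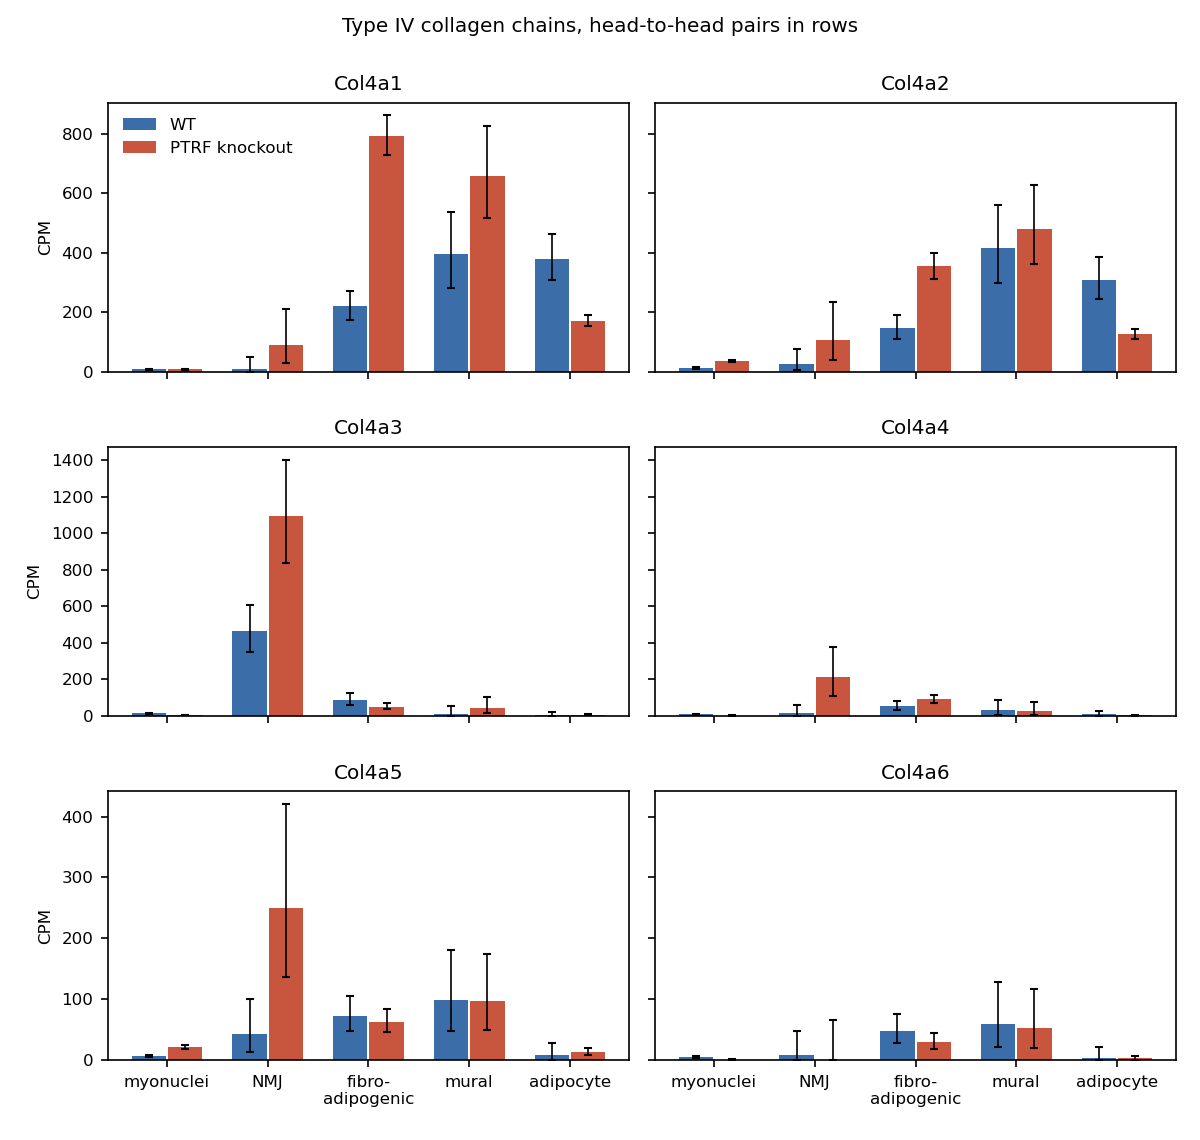
Levels in CPM of the 6 type IV collagen genes in 5 nuclear classes of the WT (blue) and PTRF knockout (red) libraries, with head-to-head pairs side by side and 95% Poisson intervals that cover counting error only. Col4a1 in fibro-adipogenic-like nuclei stands at 220 and 793 CPM in WT and knockout, and Col4a3 in neuromuscular junction-like nuclei at 465 and 1092 CPM.

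Neuromuscular junction-like nuclei carried their own collagens, Col4a3, Col19a1, Col13a1 and, in WT, Col25a1. Set against all other nuclei of the same library, Col4a3 was 34.3-fold higher there in WT and 233-fold higher in the knockout, Col19a1 19.8-fold and 139-fold, Col13a1 16.8-fold and 36.7-fold, and Col25a1 12.4-fold and 8.27-fold. Col4a3 alone passed the rule of 5 times every other class in both libraries. The class was found by clustering with the collagen chain genes left out. These folds describe the class and are no test.

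Between genotypes the summed collagen level of the neuromuscular junction-like nuclei was 2030 CPM in the WT and 5067 CPM in the knockout library, a log2 ratio of 1.32 (1.07 to 1.57). The junction markers themselves summed to 3596 and 8290 CPM, a log2 ratio of 1.2, so both differed by about as much. Of the 6 genes with at least 20 UMIs, 4 were at least 2-fold higher and 1 at least 2-fold lower, against 15.9% and 7.54% of all genes measured there. Col19a1, a FACIT (chr1:24261890-24587472, minus strand), had 65 and 120 UMIs, or 559 and 2149 CPM, a log2 ratio of 1.94 (1.49 to 2.40). Col4a3 had 54 and 61 UMIs, or 465 and 1092 CPM, a log2 ratio of 1.23 (0.68 to 1.79). Col13a1, a transmembrane collagen needed for the synapse to mature (chr10:61838236-61979108, minus strand), had 15 and 21 UMIs, or 129 and 376 CPM, a log2 ratio of 1.53 (0.52 to 2.60). Col23a1, another transmembrane collagen, stood at 68.8 and 358 CPM from 8 and 20 UMIs. Col25a1 was the exception, at 198 and 35.8 CPM from 23 and 2 UMIs, a log2 ratio of -2.18 (-5.60 to -0.45). The sixth, Col7a1, stood at 138 and 125 CPM. Below 20 UMIs, Col4a4 had 2 and 12 and Col4a5 had 5 and 14 UMIs, or 17.2 and 215 CPM and 43.0 and 251 CPM.

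Myotendinous junction-like nuclei were led by Col22a1 and Col24a1 in both libraries. Against all other nuclei Col22a1 was 48.4-fold higher there in WT and 71.2-fold in the knockout, and Col24a1 12.9-fold and 45.9-fold, and both passed the rule of 5 times every other class. Per length they stood alike in WT, at 3.71 and 3.73 CPM per kb, and apart in the knockout, at 7.40 and 4.04 CPM per kb. Col22a1 had 86 and 382 UMIs, or 886 and 1764 CPM, a log2 ratio of 0.99 (0.65 to 1.35). Col24a1 had 94 and 227 UMIs, or 968 and 1048 CPM, a log2 ratio of 0.11 (-0.24 to 0.48). The lower level of Col24a1 in the knockout myonuclei was therefore not seen in the myotendinous junction-like nuclei: in type IIb nuclei it stood at 91.9 and 28.8 CPM. Neuromuscular junction-like nuclei had too few of its UMIs to compare, 8 and 1. In myotendinous junction-like nuclei Col4a2, with 7 and 39 UMIs, stood at 72.1 and 180 CPM. It was 1 of 4 measured genes past 2-fold higher, and none was past 2-fold lower, against 13.9% and 4.45% of all genes measured there. The markers of this junction summed to 2615 and 1704 CPM, and the tenocyte list to 30.9 CPM with 3 of 8 genes detected and to 0 CPM with none.

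**Figure D5:**
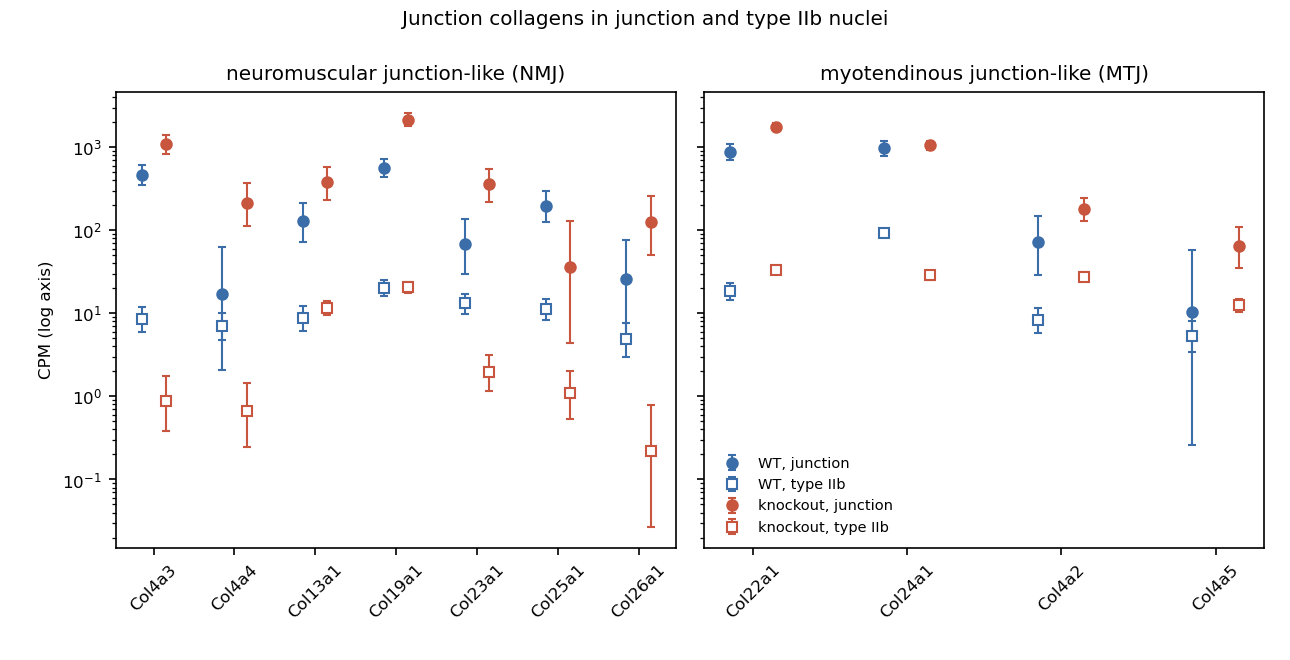
Levels in CPM (log axis) of collagen genes in junction-like nuclei (filled circles) and in type IIb nuclei (open squares) of the WT (blue) and knockout (red) libraries, for the neuromuscular junction (left) and the myotendinous junction (right), with 95% Poisson intervals that cover counting error only. Col19a1 at the neuromuscular junction stands at 559 and 2149 CPM, and Col24a1 at the myotendinous junction at 968 and 1048 CPM while its type IIb levels are 91.9 and 28.8 CPM in WT and knockout.

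Fibre types were read from nuclei with UMIs of exactly 1 adult myosin heavy chain gene. This gave 4166 WT and 3922 knockout nuclei of the fast glycolytic type IIb (Myh4), 619 and 394 of type IIx (Myh1) and 302 and 91 of type IIa (Myh2), while type I (Myh7), with 10 and 28, was not compared. Col7a1 was highest in type IIb in both libraries. It had 701 and 1560 UMIs there, or 172 CPM in each library, against 62.9 and 50.5 CPM in type IIx from 42 and 40 UMIs, and 28.1 and 51.5 CPM in type IIa from 8 and 7. The intervals of type IIb and IIx did not overlap in either library, whereas those of type IIx and IIa did in both. With each nucleus thinned to 500 UMIs type IIb stayed highest, with 199 and 202 CPM in type IIb, 118 and 40.2 in type IIx and 58.3 and 12.7 in type IIa. The thinned type IIx values rested on 36 and 8 UMIs and the type IIa values on 10 and 1. The intervals of type IIx and IIa overlapped in both libraries here too. Uqcrc1, a respiratory chain gene that ends 3.963 kb upstream of Col7a1 on the same strand, had no such order, with 44.1 and 32.8 CPM in type IIb and 58.4 and 68.2 CPM in type IIx. Another neighbour, Ucn2, was also highest in type IIb, at 5.64 and 6.18 CPM from 23 and 56 UMIs. In type IIx it had 0 and 2 UMIs, or 0 and 2.53 CPM.

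Col23a1 was lowest in type IIb nuclei, with 13.2 CPM in type IIb, 21.0 in type IIx and 66.8 in type IIa in WT, and 1.99, 32.8 and 51.5 CPM in the knockout. In type IIb nuclei it rested on 54 and 18 UMIs. In thinned WT nuclei this order was not kept, with 17.6 CPM in type IIb, 16.3 in type IIx and 29.2 in type IIa and intervals that overlap. Of 30 collagen genes with at least 20 UMIs in type IIb nuclei, 2 were at least 2-fold higher in the knockout and 19 at least 2-fold lower, against 5.22% and 17.7% of all genes measured. In type IIx nuclei 7 had enough UMIs, of which 4 were at least 2-fold higher (Col4a2, Col4a5, Col13a1 and Col20a1, a FACIT) and 0 at least 2-fold lower, against 7.18% and 5.08% of all genes. Col4a2 and Col4a5 were higher in the knockout beyond counting error in both type IIb and type IIx nuclei. Col4a2 stood at 8.33 and 27.6 CPM in type IIb, 8.99 and 44.2 in type IIx and 10.5 and 36.8 in type IIa, the last from 3 and 5 UMIs. Col4a5 stood at 5.39 and 12.5 CPM in type IIb and at 1.5 and 48.0 CPM in type IIx, from 1 and 38 UMIs, and had 0 and 10 UMIs in type IIa.

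In mural-like nuclei Col4a1 and Col4a2 had the most UMIs, and Col5a2 and Col6a3 were at least 2-fold higher in the knockout library. Col4a1 had 40 and 74 UMIs, or 395 and 659 CPM, a log2 ratio of 0.73 (0.17 to 1.33), and Col4a2 had 42 and 54, or 414 and 481 CPM, a log2 ratio of 0.21 (-0.39 to 0.83). Col6a3 had 14 and 41 UMIs, or 138 and 365 CPM, a log2 ratio of 1.37 (0.50 to 2.39). Of 6 measured genes, these 2, Col5a2 with 3 and 21 UMIs, were at least 2-fold higher and none was at least 2-fold lower, against 17% and 5.48% of all genes measured. Other type VI chains were sparse, and Col6a1 had 7 and 3 UMIs. The mural markers summed to 4005 and 6096 CPM, a log2 ratio of 0.61, with Cnn1 at 0 in WT, against 0.47 for the collagen sum.

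Endothelial-like nuclei reached 30 only in the knockout library. There Col4a1 stood at 668 CPM and Col4a2 at 524 CPM in 84 blood endothelial-like nuclei, which also held 19 of the UMIs of Col28a1, or 195 CPM. In 185 lymphatic endothelial-like nuclei Col4a1 stood at 342 CPM, Col23a1 at 253 CPM and Col18a1 at 190 CPM from 51 UMIs. Col18a1 stood at 103 CPM in the blood endothelial-like nuclei, from 10 UMIs, and Col23a1 had 0 UMIs there. Both kinds of vessel nuclei thus carried Col4a1 and Col18a1.

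Adipocyte-like nuclei had a lower collagen level in the knockout library, with 2593 and 1044 CPM, a log2 ratio of -1.31, while their markers summed to 2360 and 4855 CPM. Different clusters held most of the class in each library: 240 of 256 WT nuclei lay in a cluster with no adipocyte marker among its 10 leading genes, and 1061 of 1070 knockout nuclei in another. Sex differed as well: 81 WT nuclei of the class were Y-marked and 0 Xist-marked, against 75 and 704 in the knockout library. The genotype and the cluster cannot be told apart here, and the part of sex was not tested. Col4a1 stood at 379 and 171 CPM, Col5a3, a type V chain of fat and muscle, at 557 and 119 CPM, and Col4a2 at 308 and 126 CPM, from 96 and 344, 141 and 239 and 78 and 254 UMIs. Within the first of these clusters Col4a1 stood at 399 and 348 CPM, the latter from 5 UMIs. Col27a1, a fibrillar collagen of cartilage, had 73.9% of its knockout UMIs in adipocyte-like nuclei. It was 7.15-fold higher there than in all other nuclei in WT and 19.6-fold in the knockout. In WT, however, its level in adipocyte-like nuclei was near that in fibro-adipogenic-like nuclei, at 47.4 and 45.6 CPM from 12 and 17 UMIs. In the knockout these 2 classes stood at 81.4 and 32.3 CPM, from 164 and 23 UMIs. Of 19 measured genes 1 was at least 2-fold higher and 11 at least 2-fold lower, against 16.8% and 11.3% of all genes measured.

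Over all nuclei together 5 collagen genes were at least 2-fold higher in the knockout library and 12 at least 2-fold lower, against 8.51% and 21.1% of all genes measured. The 5 were Col4a1 at 32.8 and 78.7 CPM, Col4a2 at 30.9 and 68.6, Col4a5 at 11 and 25.1, Col6a3 at 17.9 and 37.7 and Col1a1 at 4.00 and 8.16 CPM. Among Y-marked nuclei the log2 ratio stayed past 2-fold for Col4a2, at 1.08, and Col4a5, at 2.01, but was 0.35 for Col4a1, 0.38 for Col6a3 and -0.32 for Col1a1. Among the genes lower over all nuclei was Col24a1, at 84.5 and 36.7 CPM. A level over all nuclei moves with the share of each class, and fewer nuclei of a type and less RNA per nucleus cannot be told apart in it. In macrophage-like nuclei, where Col7a1 with 6 and 33 UMIs and Col22a1 with 7 and 19 were the measured genes, 0 of the 2 passed 2-fold, against 13.4% higher and 4.95% lower of all genes measured. Ttn stood in these nuclei at 56.0% and 51.8% of its myonuclear level.

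Collagens are modified, secreted, trimmed and bound by other proteins, for which a list of 54 genes was used. In fibro-adipogenic-like nuclei 36 had at least 20 UMIs, of which 9 were at least 2-fold higher in the knockout library (P4ha1, P4ha2, P4hb, Plod2, Sec24d, Adamts3, Pcolce, Itga1 and Itgb1) and 1, Tgfb3, at least 2-fold lower, against 15.5% and 7% of all genes measured there. Plod2, a lysyl hydroxylase that sets the crosslinks of fibrils, had 5 and 102 UMIs, or 13.4 and 143 CPM, a log2 ratio of 3.29 (2.15 to 5.07). In myonuclei-like nuclei 42 were measured, of which 4 were at least 2-fold higher and 13 at least 2-fold lower, against 4.77% and 22.3% of all genes measured there. P4ha1, a prolyl hydroxylase subunit that stabilises the triple helix, stood at 43.9 and 154 CPM, a log2 ratio of 1.81 (1.64 to 1.99). Timp3, an inhibitor of matrix-degrading enzymes, stood at 52.3 and 148 CPM, a log2 ratio of 1.5 (1.34 to 1.66). The other 2 were Itgb1, the common subunit of collagen-binding integrins, at 1.03 and Ddr1, a collagen receptor kinase, at 1.21. Those whose whole interval lay beyond 2-fold lower were the procollagen C-proteinases Bmp1 at -2.74 and Tll1 at -3.49, the N-proteinase Adamts2 at -1.60, the galactosyltransferase Colgalt2 at -2.11 and the collagen-binding integrin subunits Itga1 at -2.94 and Itga11 at -2.96.

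The assignment of UMIs to single genes has limits. On the strand of the gene itself, 15 of the 40 overlap some other annotated gene, among them Col4a1, Col5a2, Col6a3, Col7a1, Col19a1 and Col24a1, and 11 overlap one on the opposite strand alone, and without a statement on strand use their UMIs cannot all be placed with certainty.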

How the data were processed

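For each genotype, WT and PTRF KO, 1 library of quadriceps nuclei was read on the 10x Genomics 3′ platform, per the labels' protocols. The deposited values are whole-number counts of UMIs per gene and barcode, and the authors produced them with Cell Ranger 6.0.0 according to the matrix header (per the file headers). STAR, Seurat 4.1.1, mm10 and GRCm38 are listed per the submitters' processing notes. Intron counting, strand use and barcode calling were not given in the sources used here. Introns in nuclear RNA can raise long genes.

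The filter kept nuclei that had 200 or more genes and no more than 5% mitochondrial UMIs. Both libraries were clustered together with scanpy 1.11.5 and leidenalg 0.10.2 (2000 variable genes, 30 components, 15 neighbours, resolution 1, seed 7), giving 22 clusters. All collagen chain genes were left out of the variable genes, and no marker list held one. A cluster was named from 17 marker lists when its mean log2 marker ratio reached 2 and 3 or more of the markers were detected. A repeat-led cluster of 1403 WT and 30 knockout nuclei stayed unnamed. Satellite-like and B cell-like nuclei were not interpreted, since Ttn reached 105% and 121% of its myonuclear level in the WT ones. No doublet caller was run and doublets stayed in. UMIs were summed per library and class and divided by the class total. For ratios, 0.5 UMI was added to both sums, and the interval is the exact conditional binomial one; levels have exact Poisson intervals (95%, scipy 1.17.1). These cover counting error only. Calls at 2-fold need at least 20 UMIs over both libraries. The calculation was tested on simulated counts. Gene lengths and positions are from the GRCm38 annotation, matched by ID for all 44 symbols.

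The genes described in full are the 8 with most UMIs, the 3 with most in each compared class, those whose interval lies beyond 2-fold in fibro-adipogenic-like or myonuclei-like nuclei, those at 5 times every other class in both libraries, and pathway genes beyond 2-fold. Members and lists were chosen with earlier results of these data known. Alternatives were other scalings, filters, clusterings, thinned nuclei and nuclei of 1 sex.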

Additional observations from a re-analysis of the deposited data

How the results depend on the processing

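No paired analysis was possible because there was 1 library per genotype, and for the same reason none could be left out. Of 87 alternative values, 52 kept their direction and size, 31 moved and 4 changed sign. All values here are log2 ratios of knockout over WT, or counts of genes past 2-fold. For all nuclei, the collagen sum was 0.028 without Rn18s, Malat1 and mitochondrial genes, 0.28 with nuclei of at least 500 genes, 0.49 thinned to 500 UMIs, -0.011 among Y-marked nuclei and 0.87 with Xist-marked knockout nuclei. In fibro-adipogenic-like nuclei it was 0.68 without those genes, 0.50 by median-ratio scaling, 0.93 with at least 500 genes, 1.00 thinned, 1.17 with Xist-marked nuclei and 0.036 scaled by the class markers. The genes past 2-fold higher there were 1 of 27 measured by that last scaling. Those past 2-fold lower, 2 of 27 as reported, were 4 of 27 by median-ratio scaling, 4 of 29 with libraries clustered separately, 1 of 27 with at least 500 genes, 1 of 20 with at least 50 UMIs, 8 of 40 with no filter on UMIs, 8 of 27 by the class markers and 0 of 15 with Xist-marked nuclei. In myonuclei-like nuclei the sum was -0.30 without those genes, -0.13 by median-ratio scaling, -0.062 with at least 500 genes, -0.13 at resolution 0.5, -0.16 clustered separately, -0.35 with the repeat-led cluster and -0.34 without the junction clusters. It turned to 0.11 among Y-marked nuclei, 0.080 with Xist-marked nuclei and 0.12 by the class markers. The genes past 2-fold lower there were 15 of 33 measured with at least 500 genes, 9 of 25 among Y-marked nuclei, 10 of 25 thinned, 14 of 38 clustered separately, 13 of 26 with at least 50 UMIs and 5 of 18 with Xist-marked nuclei, against 23 of 38, so fewer genes were measured in most of these. The cause of these differences was not tested. For the alternatives, the share of all genes past 2-fold was not computed. The repeat-led, junction, Xist-marked and class-marker alternatives were added after the data were seen. Depth limits the rare classes and chains under 20 UMIs.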

Other observations

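A cluster of 25 nuclei, all from the knockout library, was named by no marker list. Its 10 leading genes included Col12a1, a FACIT of tendon and muscle connective tissue, Col8a1 and Col25a1, together with Tnc and Runx2. With 0 WT nuclei it has no counterpart for a comparison. Its leading genes were ranked by their level over the other clusters, so their level there is no test.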
